A study of Homo sapiens with 10 samples.

Results

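The report covers 92 genes of molecular chaperones and their partners in NB4 cells, a human acute promyelocytic leukemia line. They were taken from the 60603 genes in the deposited tables, of which 19975 were protein-coding. Members were the protein-coding genes whose symbols begin with DNAJA, DNAJB, DNAJC or HSP90A, those named HSPA, HSPB, HSPD, HSPE or HSPH with a digit, the TRiC subunits TCP1 and CCT2 to CCT8, BAG1 to BAG6, PTGES3, AHSA1, STIP1, TRAP1 and HSF1, without the endoplasmic reticulum genes HSPA5, DNAJB9 and DNAJC3. CCT6A and CCT6B were both counted for CCT6, and the symbol HSPA14 stood on 2 gene identifiers, so that the 92 genes carried 91 symbols.

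In the knockdown experiment, NB4 cells received the empty pLKO.1 puro lentiviral vector (EV) or 1 of 2 short hairpins against GSE1, shA1 or shB2, and were collected 48 h after transduction. GSE1 is a partner of the histone demethylase LSD1. In the inhibitor experiment, NB4 cells without a hairpin were kept for 24 h in DMSO or in 2 µM MC2580, an LSD1 inhibitor. Each of the 5 groups had 2 biological replicates, 10 samples in all.

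The deposited values that could be used were base means, the authors' averages of size-factor-normalised read counts over all libraries of an experiment. The knockdown base mean therefore joins the EV, shA1 and shB2 libraries, and the inhibitor base mean joins the DMSO and MC2580 libraries. They have no replicate error, depth per library is unknown, and no comparison of a hairpin with EV or of MC2580 with DMSO could be made from them. What follows describes how much of each chaperone mRNA these cells held, and how the experiments as wholes differed, without a test. As the samples were bulk RNA, fewer cells and less RNA per cell cannot be told apart.

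Chaperones help other proteins to fold and keep them from aggregating. HSP70 binds short exposed stretches of a client in a cycle driven by ATP, in which J-domain proteins (the DNAJ genes) deliver the client and trigger hydrolysis, while HSP110 and BAG proteins release the nucleotide. HSP90 takes over clients such as kinases and hormone receptors with the help of co-chaperones, the chaperonin TRiC folds actin and tubulin inside a closed chamber, and HSP60 with its lid HSP10 does the like in mitochondria. Heat shock factor 1 (HSF1) induces many of these genes by binding inverted repeats of the unit GAA, known as heat shock elements.

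The promoter sequences show which of these genes carry such an element close to their start. RefSeq windows of GRCh38.p14, from 250 bases before to 50 bases after each annotated start, were at hand for 80 of the 91 symbols. An element was counted where 3 alternating units stood in a row on either strand, that is GAA, any 2 bases, TTC, any 2 bases and GAA, or the reverse complement. It was found for 7 of the 80 symbols (8.75%), against 85 of 15843 protein-coding genes (0.537%). By window the counts were 7 of 106 for the chaperones (6.6%) and 90 of 22199 for all (0.405%). The 7 genes are shown because they include the HSP90, HSP70 and HSP60 genes that dominate the mRNA of this family, and each sequence is written 5′ to 3′ on the strand of its gene with the element in capitals.

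HSP90AA1, chr14:102087112-102087140, minus strand, element beginning 88 bases before the start: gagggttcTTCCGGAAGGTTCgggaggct
HSP90AB1, chr6:44247770-44247798, plus strand, 165 bases before: ggagcaggTTCTGGAAGATTCatgggctc
HSP90AB1, chr6:44247823-44247851, plus strand, 112 bases before: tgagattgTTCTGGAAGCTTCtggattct
HSPA8, chr11:123062346-123062374, minus strand, 230 bases before: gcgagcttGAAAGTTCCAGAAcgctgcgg
HSPA8, chr11:123062171-123062199, minus strand, 55 bases before: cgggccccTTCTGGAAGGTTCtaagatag
HSPA6, chr1:161524458-161524486, plus strand, 74 bases before: cggaaaggTTCGCGAAAGTTCgcggcggc
DNAJA1, chr9:33025268-33025296, plus strand, 3 bases after: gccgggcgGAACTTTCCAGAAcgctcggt
DNAJB6, chr7:157336865-157336893, plus strand, 131 bases before: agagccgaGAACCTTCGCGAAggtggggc
HSPD1, chr2:197500062-197500090, minus strand, 245 bases before: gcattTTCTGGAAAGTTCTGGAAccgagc

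HSP90AB1 and HSPA8 each held 2 separate elements, and in HSPD1 a pair of overlapping matches ran together into 1 longer element. HSPD1 and HSPE1, the HSP60 and HSP10 genes, lie head to head on chromosome 2. The printed HSPD1 element lies between the HSPE1 start and the HSPD1 start 539 bases away from it. The other annotated HSPD1 start is 105 bases from that of HSPE1, and the element is not between that pair. A match is a description of letters in a window and not a bound site, and no match says only that these letters are absent from it. Counting 2 units, which also match inside every 3-unit element, gave 28 of the 80 symbols (35.0%) and 14.9% of all protein-coding genes.

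**Figure D1:**
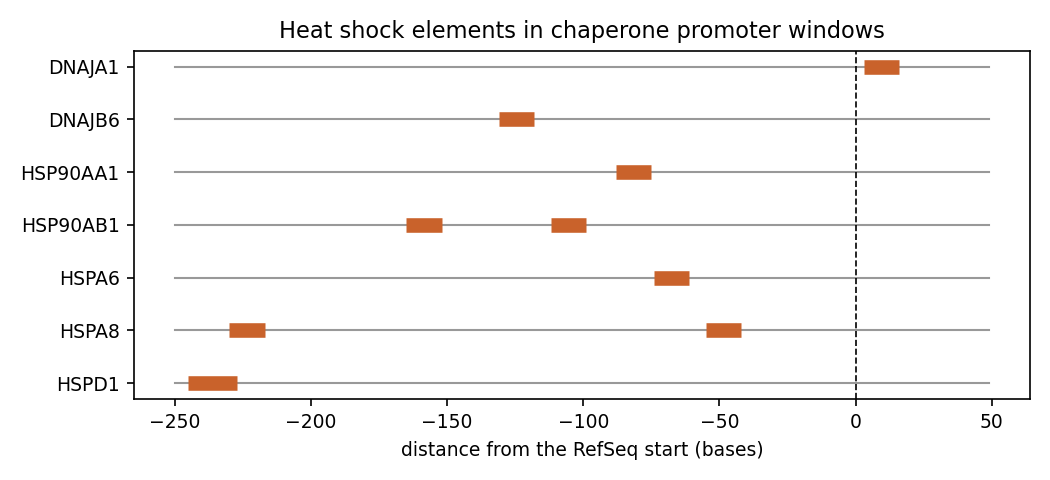
Position of each 3-unit heat shock element (orange) in the RefSeq promoter window (grey line) of the 7 chaperone genes that held one, in bases from the annotated start (dashed line). Only the DNAJA1 element lies after the start, and those of HSP90AB1 and HSPA8 come as 2 separate blocks.

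As a family the chaperones were mostly expressed in NB4 cells. Of the 92 genes, 68 (73.9%) reached a base mean of 50 in each experiment, against 54.6% of all protein-coding genes. Base means of at least 1000 were found for 45 members in the knockdown experiment and 48 in the inhibitor experiment, that is 48.9% and 52.2%, against 32.7% and 31.5% of protein-coding genes. A further 8 members stayed under a base mean of 1 in both experiments, among them 2, HSPB3 and HSPB2-C11orf52, that were listed at 0. Of the 19975 protein-coding genes, 4357 stayed under 1 in both experiments and 1942 were listed at 0 in both. Together the members held 2.31% of the summed base means of all genes in the knockdown experiment and 2.09% in the inhibitor experiment. The 4 genes HSPA8, HSP90AA1, HSP90AB1 and HSPD1 alone accounted for 1.11% and 0.923%.

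**Figure D2:**
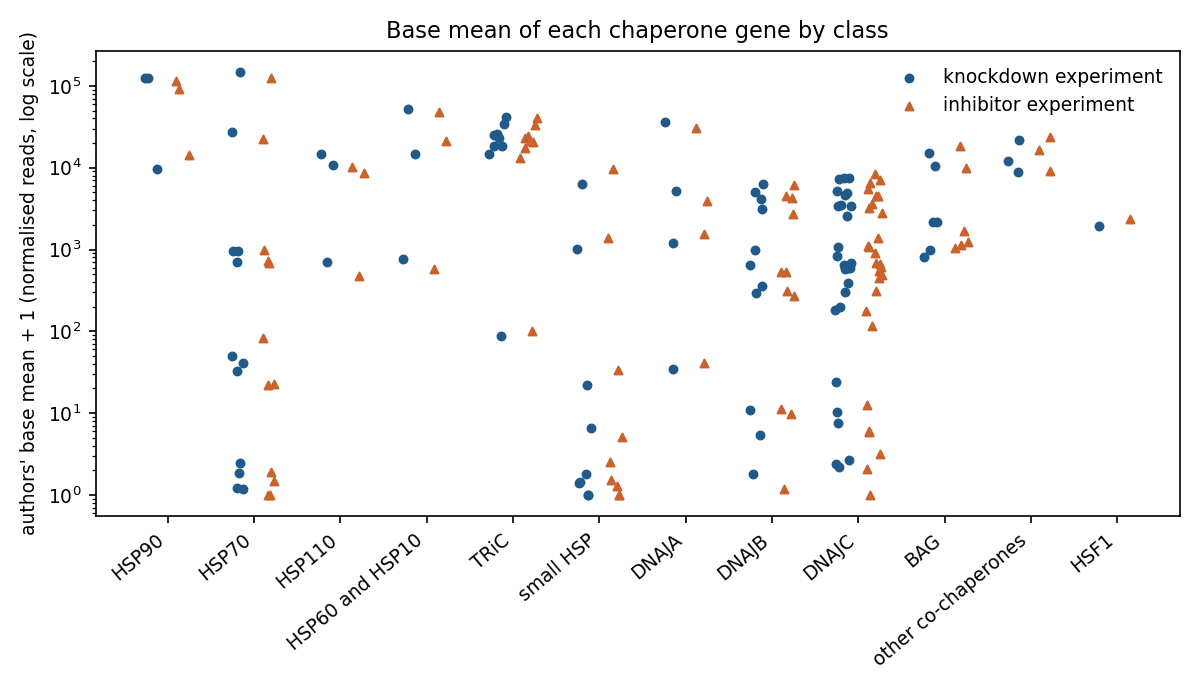
The authors' base mean plus 1 (log scale) of each of the 92 chaperone genes by class, in the knockdown experiment (circles, mean over EV, shA1 and shB2 libraries) and the inhibitor experiment (triangles, mean over DMSO and MC2580 libraries). HSP90 and TRiC genes sit near the top except CCT6B, whereas the HSP70 and small HSP classes run down to 0.

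To compare genes of different size, a level was computed as the base mean per base of annotated exon, scaled to sum to 1000000 over all genes. The markers of the cell line were first set beside its label. MPO, the myeloperoxidase of promyelocyte granules, held 1.25% of the summed base means in the knockdown experiment and 2.00% in the inhibitor experiment, and the granule genes CTSG, PRTN3 and AZU1, the surface receptor CD33 and the myeloid factor CEBPE had base means from 723 to 6435. Of the 7 promyelocyte markers only the neutrophil elastase gene ELANE was near 0, with base means of 1.10 and 3.87. The 13 markers of erythroid, T, B, epithelial and fibroblast cells together held 0.0059% and 0.0051%. Of them, KRT18, CD3D and EPCAM were the highest, with knockdown base means of 906, 866 and 432, and 2 of the 13 in the knockdown experiment and 4 in the inhibitor experiment were at 0.

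The HSP90 class held the most mRNA, 0.641% of the summed base means in the knockdown experiment and 0.537% in the inhibitor experiment. HSP90AA1 (chr14:102080742-102139699, hg38), the more stress-responsive cytosolic isoform, had base means of 125353 and 91971. HSP90AB1 (chr6:44246166-44253888), the more constitutive isoform, had base means of 124646 and 115122. The base means were thus nearly equal in the knockdown experiment, but the level per base of exon was higher for HSP90AB1, at 3848 against 2262 for HSP90AA1, a ratio of 1.70. In the inhibitor experiment the same ratio of levels was 2.14. With the MANE Select transcript, a single reference transcript per gene, as the length, the ratios were 1.26 and 1.58.

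TRAP1, the mitochondrial HSP90, had base means of 9737 in the knockdown experiment and 14277 in the inhibitor experiment. Its level was 13.1-fold below that of HSP90AA1 in the first and 6.55-fold below it in the second (8.87-fold and 4.44-fold with MANE Select lengths). Among the co-chaperones, STIP1, which bridges HSP70 and HSP90, had base means of 21612 and 23456. PTGES3, the p23 protein that binds the closed HSP90 dimer, had 12183 and 16614. AHSA1, an activator of the HSP90 ATPase, had 8872 and 9120. Their shares of the total were larger in the inhibitor experiment by 1.07-fold, 1.34-fold and 1.01-fold.

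In the HSP70 class a single gene dominated. HSPA8 (chr11:123057489-123063230), the constitutive cytosolic HSC70, had base means of 148260 and 125423 and ranked 29 and 45 among protein-coding genes by level. HSPA9, the mitochondrial HSP70 mortalin, followed with base means of 27172 and 22350, at a level 11.3-fold below that of HSPA8 in the inhibitor experiment (10.9-fold with MANE Select lengths). The ratio in the knockdown experiment was 10.6-fold with MANE Select lengths. With the longest transcripts the ratios were 17.6-fold and 18.2-fold in the knockdown and inhibitor experiments. The other members lay far lower. HSPA13, a microsomal relative, had base means of 965 and 690, and HSPA14, a ribosome-associated HSP70, had 706 and 728. A second identifier that the deposited tables also call HSPA14 had 965 and 985, but GENCODE release 44 names it MSANTD7, so it may not measure an HSP70. It was still counted among the 92 members and in the counts and share of the HSP70 class.

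The stress-inducible HSP70 genes were listed at or near 0, apart from HSPA6. HSPA1A (chr6:31815543-31817946) had a base mean of 0.87 in the knockdown experiment and was listed at 0 in the inhibitor experiment, and HSPA1B (chr6:31827738-31830254) had 0.21 and was likewise listed at 0. These genes are near copies. Of the 50-base stretches of the HSPA1A transcript, 75.1% also occur in HSPA1B. The split between them therefore depends on how the authors' software assigned shared reads, and the low value of both may depend on it too. HSPA1L, expressed mainly in testis, had 0.19 and 0.48. HSPA6, a strictly inducible HSP70 whose promoter holds a 3-unit element, had 40.4 and 21.9, and it shares 45.8% of its stretches with HSPA7. HSPA2 had base means of 31.8 and 21.3, and HSPA12B had 49.5 and 82.3.

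The HSP110 genes act as nucleotide exchange factors of HSP70. HSPH1 had base means of 14651 and 10269, HSPA4 had 10854 and 8522, and HSPA4L had 698 and 468. Their shares were smaller in the inhibitor experiment, by 1.45-fold, 1.29-fold and 1.51-fold. The order of the first pair was set by the length used. HSPA4 was 1.23-fold above HSPH1 per base of exon in the knockdown experiment, and HSPH1 was 1.23-fold above HSPA4 with MANE Select lengths.

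All 6 BAG genes passed a base mean of 50 in both experiments. BAG1, which also binds BCL2, had base means of 15257 and 18209, and BAG6, which guards tail-anchored membrane proteins, had 10440 and 10022. BAG3, which couples HSP70 to selective autophagy and is induced by stress, had 2153 in the knockdown experiment and 1249 in the inhibitor experiment. BAG5 had 2152 and 1697, BAG2, an inhibitor of the ubiquitin ligase CHIP, had 978 and 1144, and BAG4 had 815 and 1028. By share, BAG3, BAG5 and BAG6 were lower in the inhibitor experiment and BAG1, BAG2 and BAG4 were higher.

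**Figure D3:**
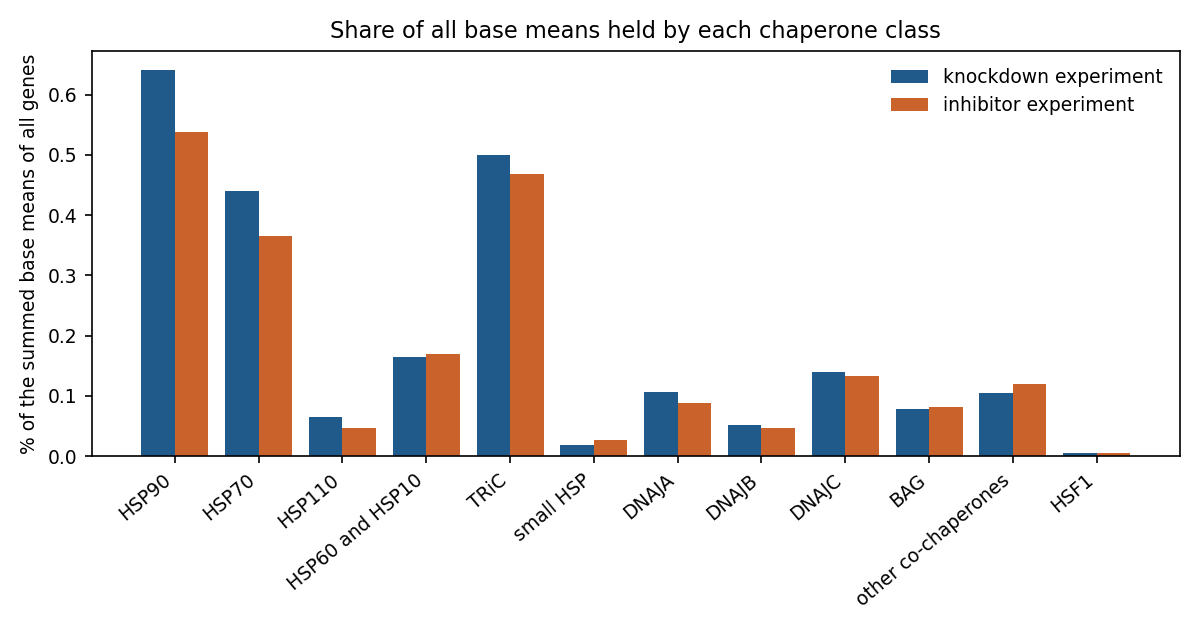
Percent of the summed base means of all genes held by each chaperone class in the knockdown experiment (blue) and the inhibitor experiment (orange), 1 pooled value per bar and therefore no error bar. HSP90, TRiC and HSP70 are the 3 tallest classes, at 0.641%, 0.499% and 0.440% in the knockdown experiment.

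The 43 J-domain genes held 0.297% of the summed base means in the knockdown experiment and 0.268% in the inhibitor experiment, and DNAJA1 was the main contributor. DNAJA1, the cytosolic partner of HSPA8, had base means of 36312 and 30896 and levels of 1252 and 963. DNAJA2, its close relative, had 5245 and 3898, and DNAJA3, the mitochondrial J-domain protein, had 1193 and 1544. DNAJA4 was low, with 33.3 and 39.5.

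In the DNAJB class, DNAJB6, a suppressor of protein aggregation, had base means of 6342 and 6102, and DNAJB1, the classical stress-inducible HSP40, had 4171 and 4204. The level of DNAJA1 was 26.7-fold that of DNAJB1 in the knockdown experiment per base of exon and 8.42-fold with MANE Select lengths. DNAJB6 showed the same dependence, with a knockdown level of 38.9 per base of exon and 131 with the MANE Select length. DNAJB11, a partner of the endoplasmic reticulum HSP70, had 5043 and 4512, DNAJB12 had 3137 and 2733, and the lowest member, DNAJB8, had 0.81 and 0.18.

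The DNAJC class is the most varied in structure and function, and 22 of its 28 genes passed a base mean of 50 in both experiments. DNAJC5, the cysteine string protein of secretory vesicles, had 7579 and 8334, DNAJC8, a splicing-associated protein, had 7505 and 7050, and DNAJC9, a histone chaperone, had 7358 and 6552. DNAJC2, which works on the ribosome, had 4656 and 4553. DNAJC7, which binds HSP70 and HSP90 through its repeats, had 4909 and 4566, and its knockdown level was 34.9 per base of exon and 140 with the MANE Select length. DNAJC11 had 5206 and 5558, DNAJC14 had 3543 and 3554, DNAJC10, a disulfide reductase, had 3404 and 2769, DNAJC21 had 3399 and 3183, and DNAJC12 had 1073 and 1073. DNAJC5B was near 0, with 1.21 and 0.

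The symbol rule did not fully hold to the cytosol and mitochondria. DNAJB11, DNAJB12, DNAJB14, DNAJC1, DNAJC10 and HSPA13, for example, encode proteins of the endoplasmic reticulum or its membrane, and the DNAJC class reaches into vesicles, endosomes and the nucleus.

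In mitochondria, HSPD1 (HSP60, chr2:197486584-197516737) and HSPE1 (HSP10, chr2:197500140-197503449) form the chaperonin. HSPD1 had base means of 51640 and 47839, and HSPE1 had 14522 and 21341. Per base of exon, the level of HSPE1 was 1.18-fold that of HSPD1 in the knockdown experiment and 1.87-fold in the inhibitor experiment, and the MANE Select lengths gave 1.13 and 1.80. The longest transcript of each gene gave larger ratios, 1.98 and 3.14, so the size of the difference depends on the length used. HSPE1 shares 48.2% of its 50-base stretches with 10 other genes, the readthrough gene HSPE1-MOB4 first among them, so its value is less certain than that of HSPD1, which shares 27.1%. HSPE1-MOB4 had base means of 761 and 583, but 94.5% of its stretches occur in other genes, 77.4% in MOB4, so its value is less certain still. The same limit holds to a lesser degree for HSP90AB1, HSP90AA1 and HSPA8, which share 19.7%, 19.1% and 16.8% of their stretches. It also holds for DNAJC14 and DNAJB11, which share 29.2% and 25.3%.

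Members that work in mitochondria differed in direction between the experiments. The share in the inhibitor experiment was larger for HSPE1 by 1.45-fold, TRAP1 by 1.44-fold, DNAJC30 by 1.37-fold, DNAJC19 by 1.31-fold, DNAJA3 by 1.27-fold and DNAJC11 by 1.05-fold. It was smaller for HSPA9 by 1.24-fold, for DNAJC15 by 1.12-fold and for HSPD1 by 1.10-fold. DNAJC15, DNAJC19 and DNAJC30 were picked after their values were seen.

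TRiC is built as a double ring of 8 different subunits in equal number, so its mRNAs were set side by side per base of exon. In the knockdown experiment the levels were 1069 for CCT7, 634 for CCT4, 599 for CCT6A, 562 for CCT5, 506 for CCT2, 489 for TCP1, 440 for CCT3 and 409 for CCT8. The highest was 2.61-fold the lowest, and the coefficient of variation over the 8 subunits was 35.5%. In the inhibitor experiment CCT7 was again the highest at 927 and CCT8 the lowest at 329, a 2.82-fold span with a coefficient of variation of 35.9%. The remaining 6 subunits lay between 412 and 536. CCT7 was also the highest with MANE Select lengths, by 2.88-fold and 3.04-fold over the lowest, but CCT4 was then the lowest subunit in the knockdown experiment at 403.

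CCT6B, the testis-enriched version of CCT6A, had base means of 87.0 and 101, and its level was 321-fold below that of CCT6A in the knockdown experiment and 254-fold below it in the inhibitor experiment (206-fold and 163-fold with MANE Select lengths). The class held 0.499% and 0.468% of the summed base means. The share of the 8 main subunits in the inhibitor experiment relative to the knockdown experiment ranged from 0.874 for CCT8 to 1.09 for CCT3.

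**Figure D4:**
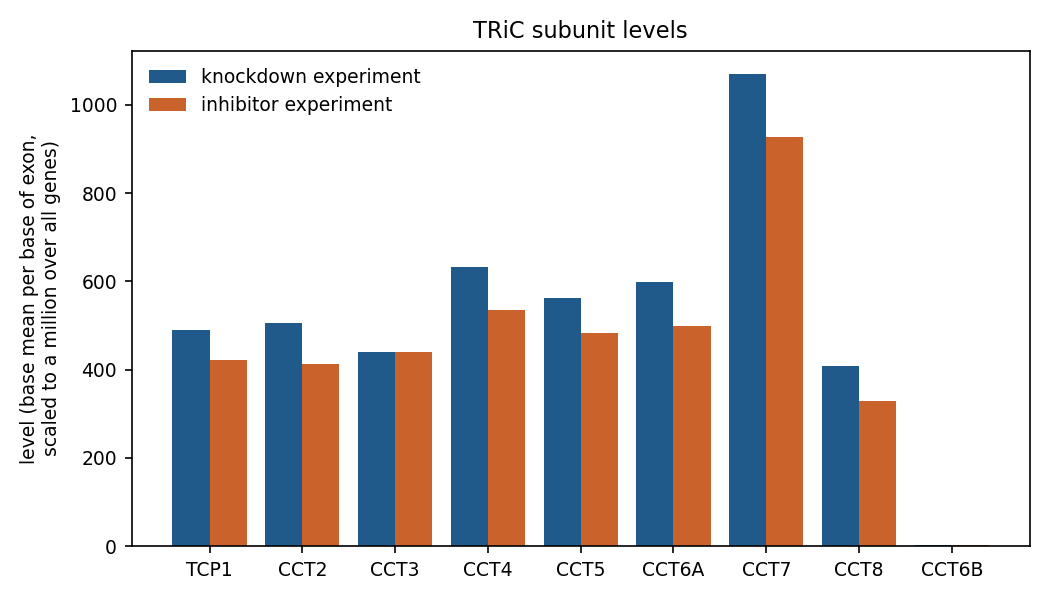
Level of each TRiC subunit (base mean per base of exon, scaled to sum to 1000000 over all genes) in the knockdown experiment (blue) and the inhibitor experiment (orange), 1 pooled value per bar. CCT7 stands above the other subunits at 1069 and 927, and CCT6B is too low to be visible.

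The small heat shock proteins hold unfolding proteins until HSP70 arrives, and most of the 9 genes counted here were hardly expressed. Of the 9, 2 (22.2%) reached a base mean of 50 in each experiment, against 54.6% of all protein-coding genes. HSPB1 (HSP27) had base means of 6377 in the knockdown experiment and 9673 in the inhibitor experiment. HSPB11 had 1019 and 1384, and RefSeq names it IFT25, a protein of ciliary transport. HSPB9 had 21.1 and 32.4. The other 6 genes of the class ranged from 0 to 5.53. HSF1 itself had base means of 1923 and 2364.

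Most of the 7 genes with a 3-unit heat shock element were among the high ones. Their levels had a median of 1252 in the knockdown experiment and 963 in the inhibitor experiment, against 21.9 and 18.8 for the 73 symbols with a window but no such element. The range within the 7 genes was wide, from 1.58 for HSPA6 and 38.9 for DNAJB6 to 3848 for HSP90AB1 in the knockdown experiment. The stress-inducible genes HSPA1A, HSPA1B, DNAJB1 and BAG3 held no 3-unit element in their windows. The difference in level was seen with the 3-unit element only and rests on 7 genes. The 28 symbols with 2 units ran from a knockdown level of 0 for HSPB3 to 3848 for HSP90AB1. Among them were HSPA1A at 0.03 and HSPA1B at 0.008, and CCT2 at 506 and CCT4 at 634. Median levels were not compared for elements of 2 units. Of the 7, 6 reached a base mean of 50 in each experiment, and these 6 held smaller shares in the inhibitor experiment, with ratios from 0.722 for HSP90AA1 to 0.947 for DNAJB6. Without an element, 35 genes had a smaller share and 20 a larger share, and of all kept protein-coding genes 58.6% had a smaller share. HSPE1 was counted as without an element, with levels of 733 and 974 and a share 1.45-fold larger in the inhibitor experiment. The HSPD1 element lies between its start and the farther HSPD1 start, but outside the HSPE1 window, so this grouping depends on the window. With the experiments scaled to the median ratio, DNAJB6 was no longer lower, at a log2 ratio of 0.01. HSPD1 and HSP90AB1 were then only slightly lower, at -0.04 and -0.05. HSP90AA1, HSPA8 and DNAJA1 stood at -0.38, -0.17 and -0.16.

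The experiments were then set side by side, each base mean taken as a share of the sum over all genes. They differ in transduction, treatment, time and set of libraries, whose parts in a difference cannot be told apart. Past 1.5-fold, 5 of the 68 members that reached a base mean of 50 in each were lower in the inhibitor experiment (7.35%), where 13.6% of the 10916 protein-coding genes kept by the same limit were lower. None of the 68 was higher past 1.5-fold, where 5.57% of all were. Past 2-fold the counts were 0 lower and 0 higher, beside 3.54% and 0.66% of all. The median log2 ratio was -0.09 for the members and -0.09 for all genes kept, with 43 members below a ratio of 1 and 25 above, against 6401 and 4515 of all.

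The 5 lower genes came from several classes. DNAJB14, an endoplasmic reticulum membrane J-domain protein, had base means of 977 and 533, a share 1.86-fold lower in the inhibitor experiment. DNAJC13, an endosomal protein, was 1.84-fold lower, with 2535 and 1400. BAG3 was 1.75-fold lower, with the base means given with its class. DNAJC18 had 195 and 116 and was 1.71-fold lower. HSPA4L, just inside the limit, was 1.51-fold lower.

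Just outside the limit on the lower side was HSPH1, 1.45-fold lower, followed by HSPA13, 1.42-fold lower. On the higher side the nearest was HSPB1, 1.49-fold higher, then HSPE1 and TRAP1. Of the most abundant genes, HSP90AA1 was 1.39-fold lower, HSPA8 1.20-fold lower, HSP90AB1 1.10-fold lower and HSPD1 1.10-fold lower. MPO held 1.25% and 2.00% of the summed base means and so entered the totals of the experiments unequally. With MPO and the genes of the mitochondrial genome left out of the totals, 4 members were lower and 1 was higher past 1.5-fold, beside 12.6% and 6.28% of all. HSPA4L then no longer passed the limit, and HSPB1 did.

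**Figure D5:**
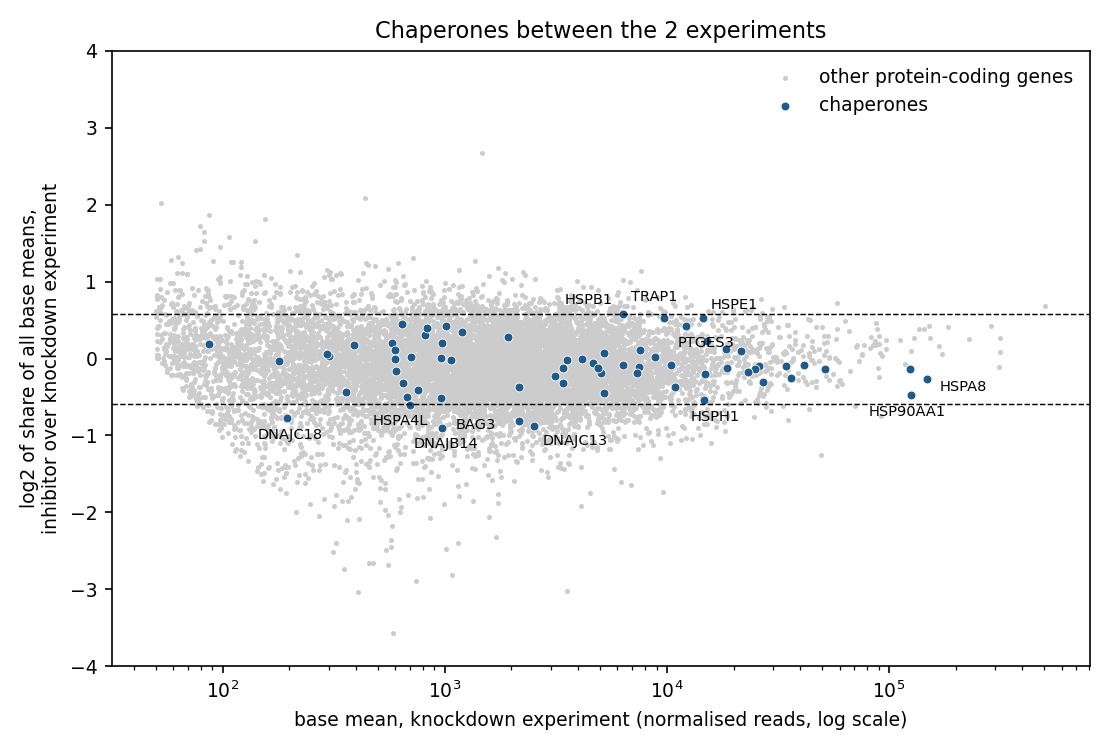
Log2 ratio of each gene's share of all base means, inhibitor over knockdown experiment, against its knockdown base mean (log scale), for the 68 chaperones (blue) and other protein-coding genes (grey) that reached a base mean of 50 in each experiment. Dashed lines mark 1.5-fold, and 5 chaperones lie below the lower line and 0 above the upper one.

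Other chaperone genes gave the setting for these values. A list of 46 genes of the endoplasmic reticulum, HSP90 co-chaperones, prefoldin, HSPBP1, mitochondrial matrix and heat shock factors held 1.48% of the summed base means in the knockdown experiment and 1.60% in the inhibitor experiment. Of the 44 protein-coding genes kept by the same limit, 1 was lower past 1.5-fold (2.27%), DNAJC3. Another 4 were higher, FKBP8, SDF2L1, PFDN4 and HSF4. Of all protein-coding genes kept, 13.6% were lower and 5.57% were higher. By level per base of exon in the knockdown experiment, the 3 highest were CALR, P4HB and PDIA4 in the endoplasmic reticulum list, CDC37, NUDC and FKBP8 among HSP90 co-chaperones, PFDN2, PFDN5 and PFDN1 in prefoldin, LONP1, AFG3L2 and GRPEL1 in the mitochondrial matrix list, and HSBP1, HSF2 and HSF4 among heat shock factors. CDC37, which brings kinases to HSP90, had base means of 28301 and 40195, a share 1.40-fold higher in the inhibitor experiment.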

How the data were processed

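Libraries were made from poly(A) RNA with a TruSeq v2 kit, which does not mark strand, so overlapping antisense transcripts cannot be told apart. The tools the authors ran, per the submitters' processing notes, were bcl2fastq 2, FastQC 0.11.5, STAR 2.7, RSEM and DESeq2 with build hg38, and the gene annotation release is not given in the sources used here. The signal the authors deposited consists of DESeq2 base means, averages of counts divided by size factors. The base mean columns of shA1 and shB2 were identical and were read as 1 mean over the EV, shA1 and shB2 libraries. The tables also hold the authors' own comparisons (log2 fold changes, standard errors, statistics and p-values), which were not used. The planned edgeR tests need values per library and were not run.

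Base means were divided by the exon length of GENCODE release 44, which had a model for 60261 of the 60603 genes and for all 92 members, and scaled to 1000000. The sums of base means were 40543130 in the knockdown experiment and 41201112 in the inhibitor experiment. Differences between experiments were called past 1.5-fold among genes that reached a base mean of 50 in each. Shared sequence was measured in stretches of 50 bases. Scripts ran in Python 3.11.15 with pandas 2.3.3 and were tested on simulated data.

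Members and lists were chosen with earlier results of these data known. Genes were named where they were among the 3 highest or the lowest of their class by level, reached a base mean of 1000 in each experiment, were among the 10 largest differences, lay beside the limit or had a near copy, and genes outside this rule were added after their values were seen.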

Additional observations from a re-analysis of the deposited data

How the results depend on the processing

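The values are pooled means without replicate error, which is the main limit. No paired analysis was possible because the deposited tables give no value per library, and for the same reason other size factors, a count filter and leaving out each replicate were not run. Against 5 lower and 0 higher members, a lower limit of 10 on the base means gave 8 lower and 2 higher (15.1% and 6.94% of all genes), and no filter with a pseudocount of 1 gave 11 lower and 3 higher (17.0% and 11.2%). A 2-fold limit gave 0 lower. Scaling by the median ratio gave 4 lower and 3 higher, with 10.1% and 8.38% of all genes, and totals without MPO and the mitochondrial genome gave 1 higher. The last alternative and the MANE Select lengths were chosen after seeing the data. The limit of 10 added HSPA6, HSPA2 and DNAJC25-GNG10 on the lower side and HSPA12B and HSPB9 on the higher side. The 2-fold limit gave 0 because the largest difference was 1.86-fold, for DNAJB14. The cause of the other moves was not tested. Each other scaling shifts all genes by 1 constant, and under both HSPA4L no longer passed 1.5-fold, at log2 ratios of -0.51 and -0.57. Heat shock elements of 2 units were found in 35.0% of member symbols. Of 108 single levels, 42 moved with MANE Select lengths and 20 with the longest transcript.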
